A study of Mus musculus with 18 samples.

Results

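Annexins and the genes of sarcolemma repair were read in RNA from isolated quadriceps myofibers of mice on vehicle, weekly prednisone or daily prednisone. The set holds 10 genes named by symbol: Anxa1, Anxa2, Anxa4, Anxa5, Anxa6, Anxa7, Anxa11, Dysf, Trim72 and Myof. All 10 were found among the 43430 gene identifiers of the count table, and all 10 passed the filter on low counts, as did 13596 genes in all. The 18 libraries come from C57BL/6 mice (C57BL/6J in the study's methods) that were 10 weeks old when treatment began, with 3 males and 3 females on each treatment. Every mouse was injected intraperitoneally for 4 weeks. Daily-treated mice received prednisone, a synthetic glucocorticoid, at 1 mg/kg on each day. Weekly-treated mice received that dose once a week and vehicle (DMSO in PBS) on the other days, and their last dose came 2 days before harvest. Vehicle-treated mice received vehicle alone. Myofibers were the material that a strainer retained after collagenase digestion, so cells lying on the fibers can be included. The study's methods give 3 animals for each sex and treatment. In the main comparisons, p-values set a difference against the spread between libraries within groups, estimated over all 18 libraries.

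When the plasma membrane of a muscle fiber tears, calcium enters and annexins, which bind acidic phospholipids in a calcium-dependent way, gather at the lesion and help to form a repair cap. Dysferlin (Dysf) and myoferlin (Myof) are ferlins, membrane proteins with several calcium-binding C2 domains that take part in vesicle fusion, and loss of dysferlin causes a muscular dystrophy. Trim72 encodes MG53, a muscle-enriched protein that nucleates the delivery of vesicles to the injury. Glucocorticoids act through their receptor, a transcription factor, and Anxa1 has long been described as one of the proteins that they induce in leukocytes.

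The libraries held between 10506661 and 14686654 counts, and mitochondrial transcripts took 11.7% to 36.4% of them. Values are CPM, counts scaled to the library size with factors from the trimmed mean of M values (TMM), unless another scale is named. The summed CPM of 10 myofiber markers ranged from 119000 to 217000, and 1 of them, Acta1, skeletal muscle actin, reached a median of 27000 CPM. Markers of other cells were present at lower levels. The summed CPM of 7 fibroblast markers ranged from 1030 to 3650, that of 7 endothelial markers from 507 to 1310, and that of 7 adipocyte markers from 308 to 5340. Of 10 known targets of the glucocorticoid receptor, Klf9 and Zbtb16 rose in the comparison of daily prednisone with vehicle over both sexes. The other 8 did not pass the test, which 15% of all tested genes passed. In these bulk libraries, fewer cells of a type and less RNA per cell cannot be told apart.

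Sequences upstream of the RefSeq start sites (build GRCm38.p6) were searched because the glucocorticoid receptor binds DNA. Of the 10 members, 9 matched an entry, with 12 start sites among them, and 250 bases before each start were read. The search covered ACANNNTGT, the core of the full receptor site, which reads the same on both strands, and TATAAA on both strands. The motif ACANNNTGT was present in 1 of the 12 windows, compared with 5.84% of the 32851 promoter windows of the table. The 3 windows shown belong to Anxa11, Anxa7 and Anxa4. Anxa11 was the only member that passed the main test between treatments, over both sexes and in neither sex alone. Anxa7 differed most between the sexes, and 1 of its start sites is shown. For Anxa4, the alternative start that held the match is shown. Capitals mark the match, and the last base of each run lies just before the start site.
Anxa11: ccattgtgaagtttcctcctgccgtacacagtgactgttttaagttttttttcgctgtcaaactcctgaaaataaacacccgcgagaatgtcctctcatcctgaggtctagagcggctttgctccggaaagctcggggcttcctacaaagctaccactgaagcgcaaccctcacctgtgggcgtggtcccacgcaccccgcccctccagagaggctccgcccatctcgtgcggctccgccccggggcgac
Anxa7: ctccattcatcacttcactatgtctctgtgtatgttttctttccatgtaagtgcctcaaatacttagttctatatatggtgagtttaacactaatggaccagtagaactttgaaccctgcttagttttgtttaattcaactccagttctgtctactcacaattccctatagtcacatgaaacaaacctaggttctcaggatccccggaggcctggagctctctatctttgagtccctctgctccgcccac
Anxa4: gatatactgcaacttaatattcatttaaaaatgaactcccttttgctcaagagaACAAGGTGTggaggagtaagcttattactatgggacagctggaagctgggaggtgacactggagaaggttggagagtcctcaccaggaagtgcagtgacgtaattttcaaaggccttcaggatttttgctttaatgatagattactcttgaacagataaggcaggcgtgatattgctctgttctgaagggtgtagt
The Anxa11 window lies at chr14:25841905-25842154 on the plus strand, the Anxa7 window at chr14:20480134-20480383 on the minus strand, and the Anxa4 window at chr6:86775115-86775364 on the minus strand. None of these 3 windows overlaps an annotated exon of its gene. Another Anxa7 window of the search, at chr14:20479942-20480191, held no match and overlapped annotated exons of Anxa7 by 192 bases. The match begins 196 bases before the Anxa4 start. TATAAA was found upstream of Anxa1 and Anxa2, beginning 32 and 17 bases before their starts, and in 12.4% of all windows. A match of letters is a description and shows no binding, and no match says only that these letters are not in the window.

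The levels of the members were compared per kilobase of the longest coding transcript of each gene, so that long and short genes share a scale. Anxa6, an annexin with a duplicated core, was highest at 77.4 CPM per kb ± 8.04 (SD, n = 18). Trim72 followed at 60.9 ± 12.9 and Anxa2 at 60.2 ± 16.4 CPM per kb, and Trim72 was above Anxa2 in 9 of 18 libraries, so their order is not resolved. Anxa5 stood at 44.6 ± 10.8 CPM per kb. Anxa7 at 26.3 ± 5.51, Anxa1 at 24.9 ± 7.65 and Anxa11 at 20.3 ± 4.23 CPM per kb formed a middle group whose ranges overlapped. Dysf stood at 15.4 ± 2.52 CPM per kb and Anxa4 at 6.71 ± 0.93. Myof was lowest at 1.93 CPM per kb ± 0.517. Over all 18 libraries, the neighbours whose ranges did not overlap were Dysf and Anxa4, and Anxa4 and Myof. Dysferlin, the ferlin of mature fibers, therefore stood above myoferlin, which is known from dividing and regenerating myoblasts, in every library.

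**Figure D1:**
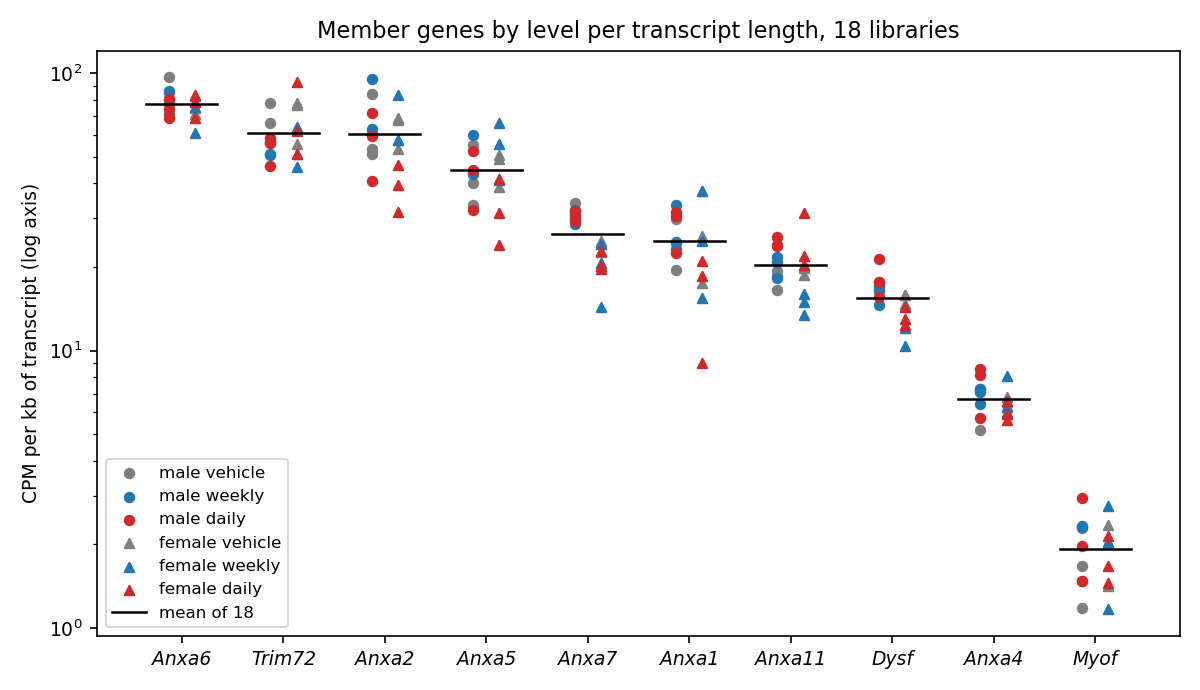
Level of each member in CPM per kb of its longest coding transcript, on a log axis. Points are the 18 libraries, circles males and triangles females, colored by treatment, and black lines are means of 18 libraries. Anxa6 is highest at a mean of 77.4 and Myof lowest at 1.93.

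How stable a member was among replicates differed widely. The biological coefficient of variation, the spread between replicates beyond counting error, was 0.298 for Anxa1, 0.278 for Myof, 0.225 for Anxa2 and 0.218 for Anxa5. It was 0.137 for Dysf, 0.14 for Anxa6 and Anxa11, 0.142 for Anxa7 and 0.15 for Anxa4, against a median of 0.183 over all tested genes. Differences in Dysf, Anxa6, Anxa7 and Anxa11 could thus be seen at smaller sizes than differences in Anxa1 or Myof. Counts of a member in 1 library ran from 93 for Myof to 3245 for Anxa6, so counting error was smaller than the spread between mice.

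Anxa11 was the only member that passed the main test between treatments, over both sexes and in neither sex alone. It was 1 of 10 members, beside 15% of all tested genes in daily against vehicle and 8.17% in daily against weekly prednisone. The gene encodes a widely expressed annexin with a long amino-terminal tail that also tethers RNA granules to lysosomes. In males, Anxa11 reached 46.5, 44.6 and 39.5 CPM on vehicle and 61.5, 57.7 and 57.3 CPM on daily prednisone. In females it reached 47.4, 48.0 and 44.9 CPM on vehicle and 75.3, 52.6 and 48.8 CPM on daily prednisone. In both sexes every daily library lay above every vehicle library, and female daily replicate 1 stood highest of all. With 3 libraries in a group, ranges can also separate by chance, so this and later separations are descriptions and were not tested. Under weekly prednisone, Anxa11 was at 50, 52.2 and 43.9 CPM in males and at 38.3, 32.0 and 36 CPM in females. The female weekly libraries thus lay below all female vehicle libraries, whereas the male weekly libraries overlapped the male vehicle libraries.

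Over both sexes, daily prednisone raised Anxa11 by 0.38 ± 0.10 on the log2 scale (SE, 1.3-fold, 95% interval 0.17 to 0.60), with an adjusted p of 0.0187 in edgeR's quasi-likelihood test. It was the 1 member of 10 that was called in this comparison, where 15% of all tested genes were called. The call missed the threshold once the dependence of counts on transcript length and GC was removed, with a log2 fold change of 0.42 and an edgeR adjusted p of 0.0532. Within each sex Anxa11 was not called. The difference was 0.43 ± 0.14 in males (edgeR adjusted p of 0.0797) and 0.33 ± 0.14 in females (edgeR adjusted p of 0.241), and without female daily replicate 1 the female value was 0.11. No member was called in daily against vehicle males, where 6.46% of tested genes were called, or in females, where 0.382% were. At an unadjusted p under 0.05, 1 member stood out in males (22.8% of all genes) and 2 in females (17.3% of all genes). DESeq2 and limma-voom called no member within either sex.

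Daily prednisone was also compared with weekly prednisone. Against weekly prednisone, daily prednisone raised Anxa11 by 0.50 ± 0.10 on the log2 scale over both sexes (1.42-fold, 95% interval 0.29 to 0.72, edgeR adjusted p of 0.0105). It was again the 1 member called, among 8.17% of all tested genes. In females alone the difference was 0.73 ± 0.14 (edgeR adjusted p of 0.0527) and in males 0.27 ± 0.14 (edgeR adjusted p of 0.432), and in each sex all daily libraries lay above all weekly ones. In neither sex was a member called, and 0% of all genes were. Without adjustment, 3 members in females (17.7% of all genes) and 0 in males (13.5% of all genes) had a p under 0.05. DESeq2 called no member in males and Anxa11 in females, with an adjusted p of 0.00132, and limma-voom called no member in either sex. Leaving out female weekly replicate 1 gave Anxa11 an edgeR adjusted p of 0.0374 in females. Female weekly and daily libraries with the same replicate number in their titles deviated together, although the names of their count columns carry numbers that differ within each pair. With the number as a block in these 6 libraries, chosen after the data were seen, Anxa11 differed by 0.71 with an edgeR adjusted p of 0.0204, and Anxa5 by -0.75 with an edgeR adjusted p of 0.0475. Over both sexes, this replicate block kept the call for Anxa11 and added Anxa5, at -0.47 with an edgeR adjusted p of 0.0383.

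Weekly prednisone itself was not separable from vehicle for any member. None was called in males, in females or over both sexes, and in each of these comparisons 0% of all genes were called. DESeq2 and limma-voom called no member in these 3 comparisons either. At an unadjusted p under 0.05 there were 0 members in males, where 5.71% of all genes passed, 2 in females, where 7.97% passed, and 2 over both sexes, where 11% passed. The 2 in females were Anxa11 at -0.40 ± 0.14 and Dysf at -0.34 ± 0.14. Over both sexes they were Trim72 at -0.36 ± 0.15 (edgeR adjusted p of 0.374) and Dysf at -0.22 ± 0.10 (edgeR adjusted p of 0.427). The sexes differed by -0.56 ± 0.20 in the weekly response of Anxa11, females minus males, with an edgeR adjusted p of 1. No member and 0% of all genes were called for a sex difference of the weekly or the daily response. Without adjustment, 1 member passed for the weekly response (2.63% of all genes) and 0 for the daily response (4.69% of all genes). DESeq2 and limma-voom called no member for either sex difference.

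Adipocyte markers moved with treatment as well. Their summed level was 308 to 568 CPM in male vehicle, 638 to 1420 in male daily, 649 to 735 in female vehicle and 1090 to 3140 CPM in female daily libraries. In weekly libraries it was 654 to 1140 CPM in males and 861 to 5340 CPM in females, the group with the highest mean sum and the lowest mean Anxa11. Within that group, replicates 1, 2 and 3 held sums of 3350, 861 and 5340 CPM beside 38.3, 32 and 36 CPM of Anxa11. Of the 7 adipocyte markers, 6 rose in daily against vehicle over both sexes, where 15% of all tested genes were called. In daily against weekly prednisone, where Anxa11 also differed and 8.17% of all tested genes were called, 0 of the 7 were called. Of 5 red blood cell markers, 4 fell in both of these comparisons, and of 10 myofiber markers, 6 fell in daily against vehicle and 1 rose in daily against weekly. Of 10 macrophage markers, 1 rose in daily against vehicle, and 1 rose and 1 fell in daily against weekly prednisone. The summed level of macrophage markers was 95 to 130 CPM in weekly females and 60.3 to 74.4 CPM in daily females. In daily against weekly females, 5 of the 10 had an unadjusted p under 0.05 (17.7% of all genes). The median log2 fold change of the 10 was -0.59, beside -0.04 over all tested genes. The part of these cells in the Anxa11 difference was not tested.

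**Figure D2:**
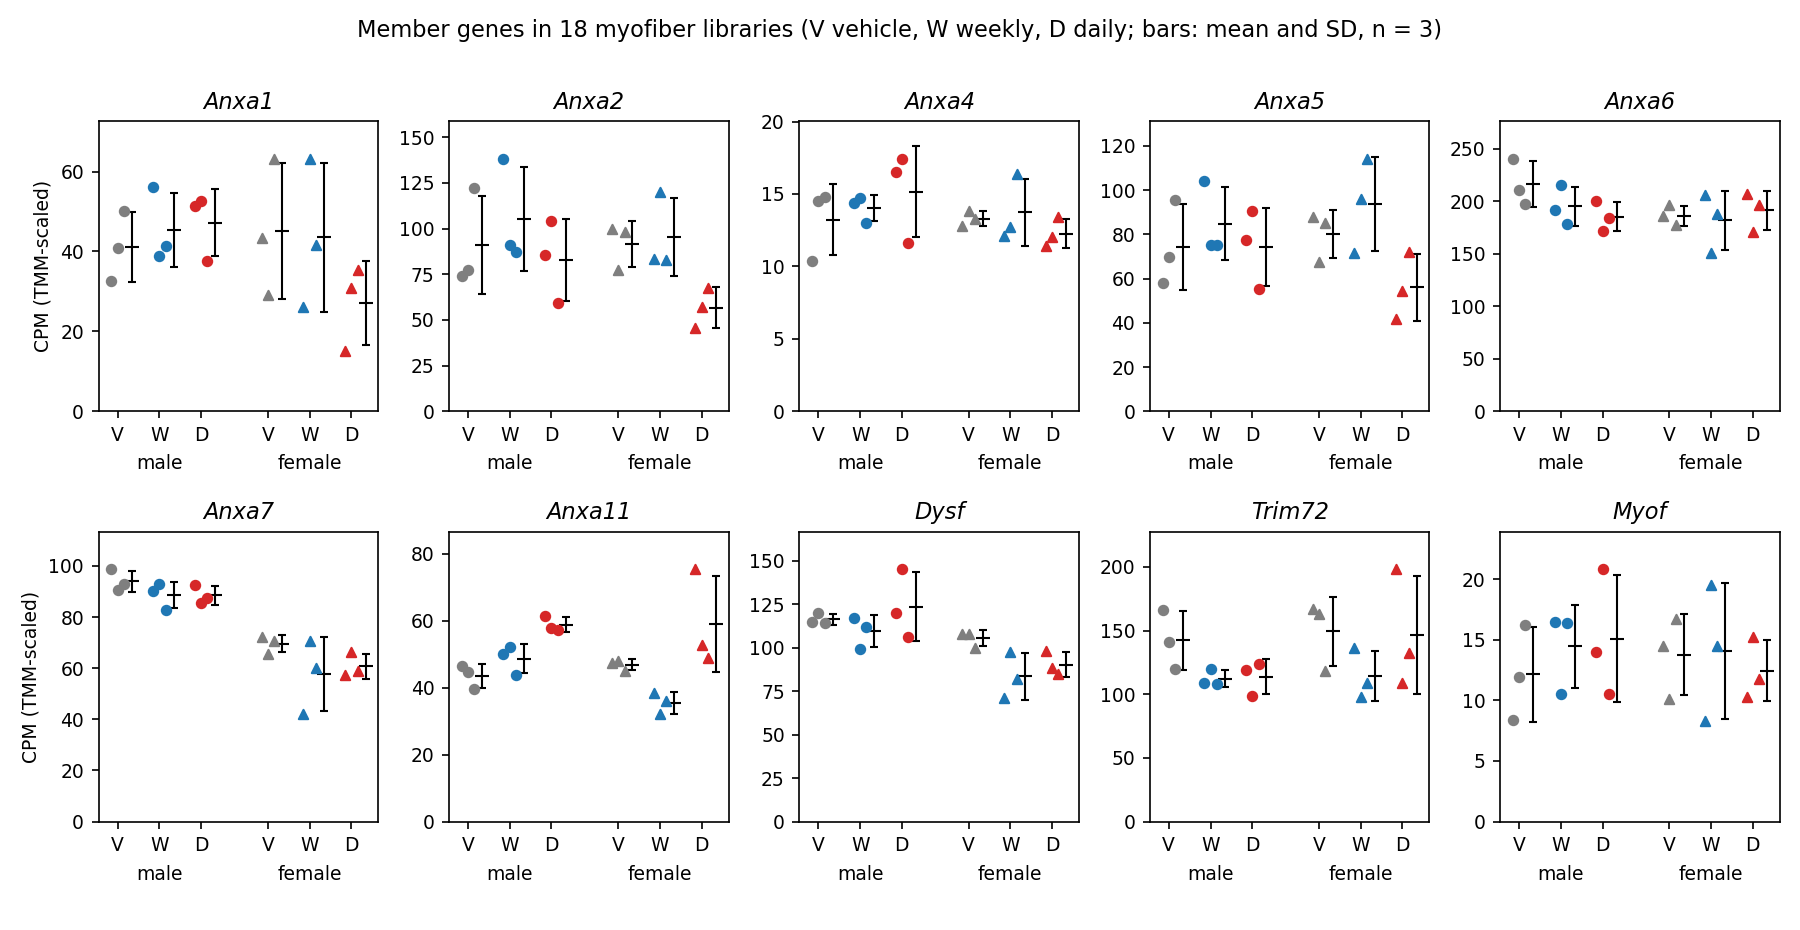
TMM-scaled CPM of the 10 members in 18 libraries, grouped as vehicle (V), weekly (W) and daily (D), circles for males and triangles for females. Bars are the mean and SD of 3 libraries. Anxa11 is at 57.3 to 61.5 CPM in daily-treated males against 39.5 to 46.5 on vehicle, and Anxa7 lies lower in all female than in all male libraries.

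Anxa1, Anxa2 and Anxa5 had lower mean values in daily-treated females without passing the test in the fit without a block. Anxa2 forms a tetramer with S100a10 at membranes, Anxa5 binds phosphatidylserine and builds lattices at lesions, and Anxa1 bridges membranes. In females, Anxa2 was at 99.8, 77.1 and 98.1 CPM on vehicle, 83.3, 120 and 82.7 CPM on weekly and 45.5, 57.1 and 67.7 CPM on daily prednisone. The 3 daily libraries lay below the other 6. The difference from vehicle was -0.69 ± 0.25 on the log2 scale (edgeR adjusted p of 0.17), and that from weekly prednisone was -0.75 ± 0.25 (edgeR adjusted p of 0.145). In males the 3 daily libraries held 85.8, 104 and 59.2 CPM of Anxa2, inside the range of 73.8 to 122 CPM on vehicle but for the lowest. Over both sexes, Anxa2 differed between daily and weekly prednisone by -0.54 ± 0.18 (edgeR adjusted p of 0.072), and DESeq2 called it with an adjusted p of 0.0361.

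Anxa5 in females was at 87.9, 67.6 and 85.0 CPM on vehicle, 71.6, 96.0 and 114 CPM on weekly and 41.7, 54.4 and 72.0 CPM on daily prednisone. The daily libraries overlapped both other groups by a single library. Daily against weekly prednisone gave -0.74 ± 0.24 (edgeR adjusted p of 0.138), which became -0.75 with an edgeR adjusted p of 0.0475 under the replicate block in these 6 libraries, and daily against vehicle -0.52 ± 0.24 (edgeR adjusted p of 0.289). Anxa1 in females was at 43.3, 29.2 and 63.1 CPM on vehicle, 26.0, 63.1 and 41.6 CPM on weekly and 15.1, 30.9 and 35.3 CPM on daily prednisone. These groups overlapped, and daily against vehicle gave -0.74 ± 0.35 with a 95% interval from -1.48 to 0.01 (edgeR adjusted p of 0.294). In males Anxa1 was at 32.6 to 50.1 CPM on vehicle and at 37.6 to 52.7 CPM on daily prednisone. The male difference was 0.20 ± 0.35 with a 95% interval from -0.54 to 0.94 (edgeR adjusted p of 0.774). An induction of Anxa1 by daily prednisone was therefore not detected in either sex, while the wide male interval also holds increases. Female daily replicate 1, with 15.1 CPM of Anxa1, 45.5 of Anxa2 and 41.7 of Anxa5, was the lowest of all 18 libraries for these 3 genes. It also held the lowest summed level of fibroblast markers, at 1030 CPM, while the other 2 female daily libraries held 1980 and 2560 CPM. In daily against vehicle females, where 0.382% of all tested genes were called, 0 of the 7 fibroblast markers were called. All 7 had negative log2 fold changes, with a median of -0.39 beside 0.01 over all tested genes. Endothelial markers had a median of -0.51 with 7 of 7 negative and 0 called, and their summed level was 611 to 1000 CPM in daily and 1010 to 1030 CPM in vehicle females, without overlap. The 6 smooth muscle and pericyte markers had a median of -0.36, with 6 negative and 0 called, and the 5 red blood cell markers had a median of -0.83, with 5 negative and 1 called. The part of these cells in the values of Anxa1, Anxa2 and Anxa5 was not tested.

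The remaining annexins, the ferlins and Trim72 were not called in any comparison of treatments. Trim72 was at 120 to 166 CPM in vehicle males and at 118 to 167 CPM in vehicle females. It was at 108 to 120 CPM in weekly males, 98.0 to 136 CPM in weekly females, 98.5 to 124 CPM in daily males and 109 to 198 CPM in daily females. The weekly libraries thus lay in the lower part of the vehicle range or below it. Dysf was at 114 to 120 CPM in vehicle males and 100 to 108 CPM in vehicle females. In females it was at 70.9 to 97.8 CPM on weekly and 84.6 to 98.1 CPM on daily prednisone, below all vehicle libraries, with differences of -0.34 ± 0.14 (edgeR adjusted p of 0.511) and -0.23 ± 0.14 (edgeR adjusted p of 0.416). In males it was at 99.1 to 117 and 106 to 145 CPM, overlapping vehicle. Myof ranged from 8.31 to 20.8 CPM and Anxa4 from 10.4 to 17.4 CPM over all libraries, and treatment groups overlapped throughout in each sex. Anxa6 ranged from 151 to 240 CPM, and its 95% interval for daily against vehicle over both sexes ran from -0.30 to 0.12 on the log2 scale. That interval was -0.36 to 0.08 for Anxa7 and -0.27 to 0.14 for Dysf.

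Across the 10 members, the median log2 fold change in daily against vehicle was 0.05 in males and -0.17 in females, beside 0.05 and 0.01 over all tested genes. In weekly against vehicle it was 0.11 in males and -0.05 in females, beside 0.01 and 0.01. A filter after that of the study, without its threshold on variation, takes genes whose mean log2 CPM exceeds 2.5 and whose log2 fold change exceeds 0.5 in size, and involves no test. It kept 0 members in daily males (13.1% of all genes), 3 in daily females (9.4%), 0 in weekly males (3.02%) and 0 in weekly females (3.82%). The 3 in daily females were Anxa1, Anxa2 and Anxa5. Without female daily replicate 1 the filter kept Anxa2 alone, and the same held without female vehicle replicate 3.

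**Figure D3:**
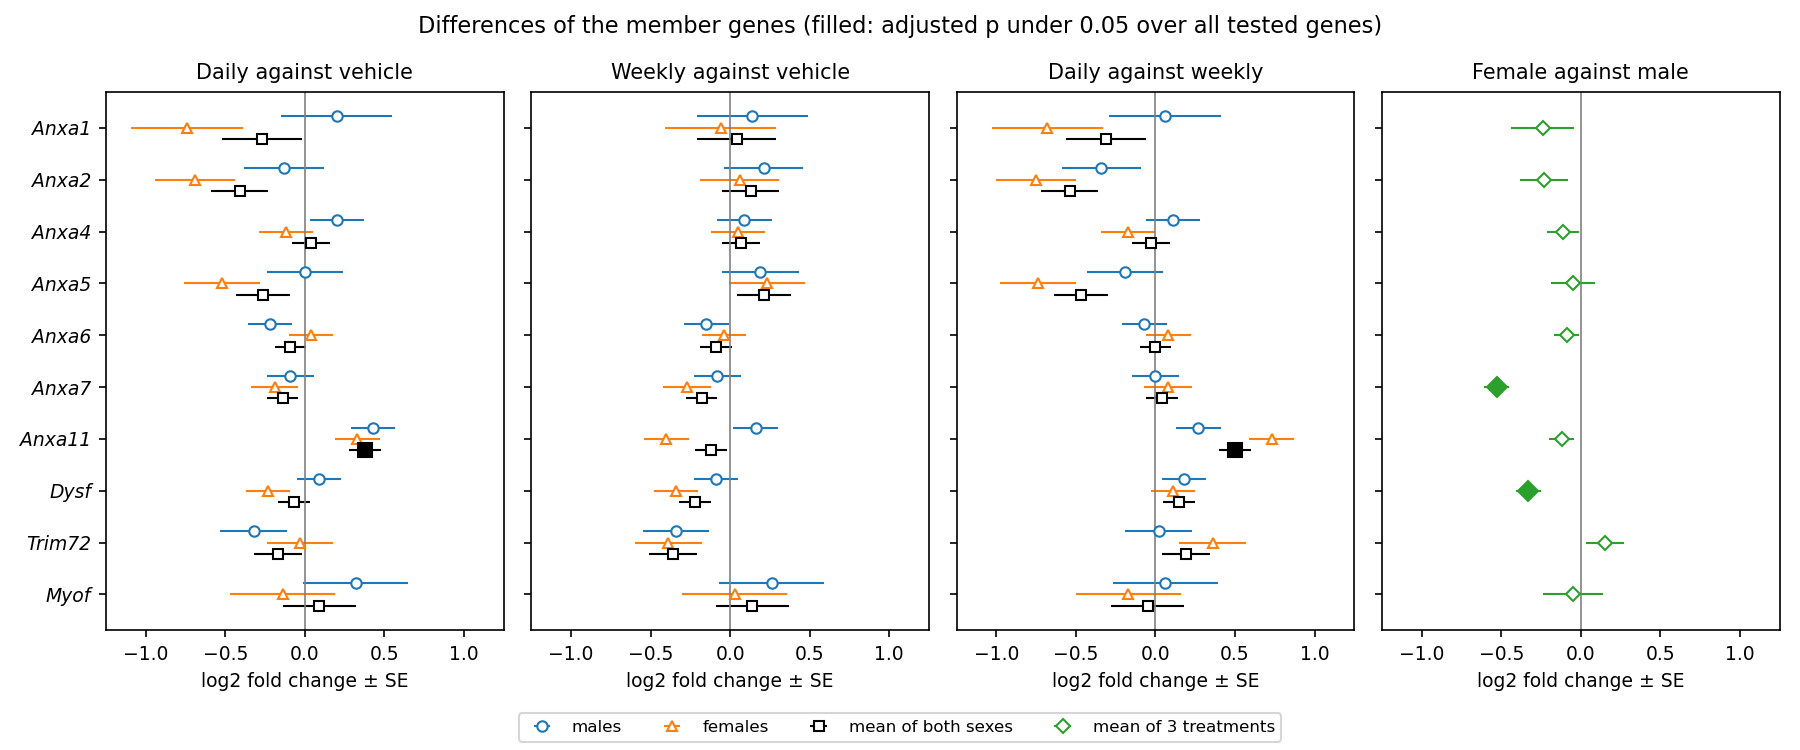
Log2 fold change ± SE of the 10 members by comparison, from the fit of all 18 libraries, with circles for males, triangles for females, squares for the mean of both sexes and diamonds for female against male. Filled symbols have an adjusted p under 0.05 over 13596 genes. Anxa11 is filled in 2 panels, and Anxa7 and Dysf in the panel of female against male.

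Anxa7 and Dysf were lower in females than in males over the 3 treatments. Anxa7 encodes a calcium-activated annexin with a long amino-terminal tail that takes part in membrane fusion. Its level in males was 98.6, 90.4 and 92.8 CPM on vehicle, 90.0, 92.9 and 82.9 CPM on weekly and 92.6, 85.3 and 87.4 CPM on daily prednisone. In females it was 72.0, 65.7 and 70.8 CPM on vehicle, 42.0, 70.6 and 60.0 CPM on weekly and 57.3, 66.4 and 58.7 CPM on daily prednisone. The 9 female libraries lay between 42.0 and 72.0 CPM and the 9 male libraries between 82.9 and 98.6 CPM, without overlap. A comparison of females with males over the 3 treatments was added after these values had been seen. In it Anxa7 was lower in females by -0.53 ± 0.08 on the log2 scale (0.691-fold, 95% interval -0.71 to -0.35, edgeR adjusted p of 9.0e-04). Dysf was lower in females by -0.33 ± 0.08 (0.797-fold, edgeR adjusted p of 0.0177). Dysf was at 99.1 to 145 CPM in the 9 male libraries, with a median of 115, and at 70.9 to 108 CPM in the 9 female libraries, with a median of 97.8, and these ranges overlapped.

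These 2 members, both lower in females, were called beside 7.61% of all tested genes, of which 460 were higher and 574 lower in females. Both calls held under every alternative that was run for this comparison, with Anxa7 between -0.60 and -0.47 and Dysf between -0.38 and -0.29. The other 8 members were not called, with log2 differences from -0.24 for Anxa1 to 0.15 for Trim72. Among vehicle libraries alone, which was the planned comparison of the sexes, no member was called, beside 0.765% of all genes, and 1 member passed without adjustment, beside 10.4% of all genes. DESeq2 and limma-voom called no member there. That member was Anxa7, with a difference of -0.43 ± 0.15 (edgeR adjusted p of 0.255). For Dysf the difference among vehicle libraries was -0.14 ± 0.14 (edgeR adjusted p of 0.745), smaller than the -0.33 over the 3 treatments, so the Dysf call rests mostly on the weekly and daily libraries. Adipocyte markers were also higher in females over the 3 treatments, with 3 of 7 called, and 1 of 4 satellite cell markers was lower. None of the 7 fibroblast, 7 endothelial or 10 myofiber markers was called there by edgeR, beside 7.61% of all tested genes. Their part in the sex difference was not tested.

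The members varied together in groups across the 18 libraries. Of 45 pairs, 14 had a correlation of log2 CPM with an adjusted permutation p under 0.05, of which 9 were positive and 5 negative. Anxa2 and Anxa5 were the closest pair (r = 0.877, permutation p of 1.0e-05, adjusted 4.5e-04, rho = 0.851, permutation p of 4.0e-05), where 1.0e-05 is the smallest value that 100000 permutations can give. Anxa1 joined them with r = 0.813 to Anxa2 (rho = 0.804) and r = 0.794 to Anxa5 (rho = 0.829), and the permutation p was 4.0e-05 and 9.0e-05 for r and 1.3e-04 and 5.0e-05 for rho. Without the 2 libraries farthest from the median of the first gene, r was 0.796, 0.788 and 0.710 for these 3 pairs. These annexins therefore rose and fell together from library to library, and they did so within groups too, where deviations from the group means gave r from 0.777 to 0.834. The libraries of 1 group share a treatment and a sex, and all share the scaling, so the libraries are not exchangeable in full.

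Trim72 and Anxa6, both abundant in fibers, ran against Myof. The pair of Anxa6 and Myof had r = -0.785 (rho = -0.759, permutation p of 9.0e-05 and 3.7e-04, adjusted 8.1e-04 and 0.00277), and r was -0.698 without the 2 farthest libraries. Trim72 and Myof had r = -0.711 (rho = -0.812, permutation p of 9.6e-04 and 9.0e-05, adjusted 0.0054 and 0.00101), and r was -0.85 without the 2 farthest libraries. Trim72 and Anxa1 had r = -0.719 (rho = -0.653, permutation p of 8.0e-04 and 0.0044, adjusted 0.00514 and 0.0198), and r was -0.562 without them. Anxa7 and Dysf both differed between the sexes, and since male and female libraries form separate clusters for Anxa7, their relation was read within each sex. In the 9 female libraries r was 0.819 (exact permutation p of 0.00706, adjusted over both sexes 0.0141) and rho 0.617 (exact permutation p of 0.0857), and r was 0.779 without the 2 farthest libraries. In the 9 male libraries r was -0.258 (exact permutation p of 0.51) and rho -0.167 (exact permutation p of 0.678), and r was -0.593 without the 2 farthest libraries. The pair thus moved together among female libraries by r, while rho did not pass the threshold there, and neither measure passed it among male libraries. Each of these values pools 3 treatments, so differences between treatment means enter it. In females the means on vehicle, weekly and daily prednisone were 69.5, 57.5 and 60.8 CPM for Anxa7. They were 106, 83.6 and 90.3 CPM for Dysf. Over the 18 libraries r was 0.813, and deviations from the group means gave r = 0.427.

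**Figure D4:**
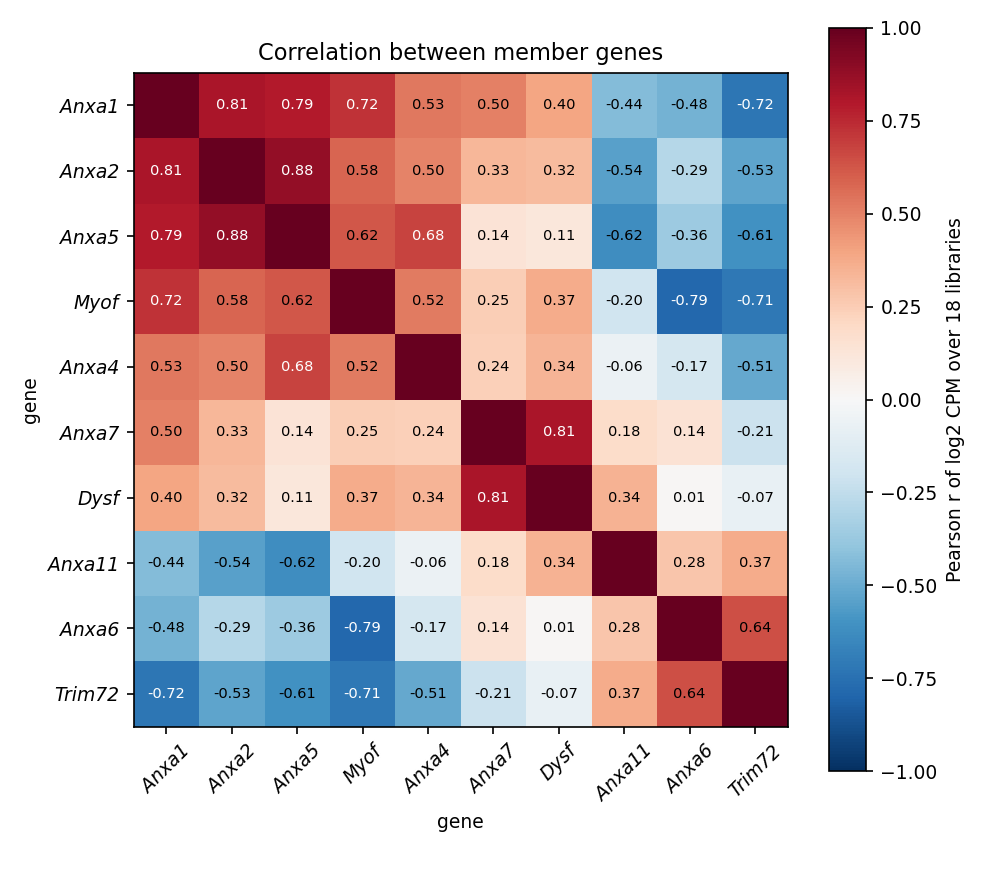
Pearson correlation of log2 CPM between members over 18 libraries, with red for positive and blue for negative values. Anxa1, Anxa2, Anxa5 and Myof are positively correlated with one another, and each has a negative r with Trim72 and Anxa6. Of these negative pairs, only Trim72 with Anxa1, Anxa5 and Myof, and Anxa6 with Myof, had an adjusted permutation p under 0.05.

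For each member, the genes most like it over the 18 libraries were taken from 12625 named genes by Pearson r, as a description. S100a10, the small calcium-binding partner of annexin A2, was first for Anxa2 with r = 0.953 (rho = 0.924). Anxa1 was closest to Lhfp (r = 0.922), Anxa5 to Nupr1 (r = 0.910) and Myof to Arhgef18 (r = 0.941). Anxa6 was closest to Pgk1, a glycolytic enzyme, with r = 0.888, and Trim72 to Asrgl1 with r = 0.949. Anxa7 was closest to Odc1, the first enzyme of polyamine synthesis, with r = 0.940, which includes the difference between the sexes, and with r = 0.892 for deviations from the group means. Anxa11 was closest to Herc2 (r = 0.909), Dysf to Golm1 (r = 0.879) and Anxa4 to Rarres2 (r = 0.783).

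The wider repair machinery was read through 41 related genes, of which 40 are in the table and 36 were tested. They cover other annexins, annexin partners, ferlins and partners of dysferlin, calpains, the ESCRT complex that pinches off damaged membrane, and vesicle fusion. In daily against vehicle over both sexes, 2 of these 36 rose and 5 fell, which is 19.4% called beside 15% of all tested genes, and their median log2 fold change was -0.13 beside 0.02 over all tested genes. Kif5b, a kinesin that carries dysferlin-bearing vesicles, rose by 0.47 (edgeR adjusted p of 0.0135), and Snap23, a fusion protein of the plasma membrane, rose by 0.22 (edgeR adjusted p of 0.0446). Cav3, the muscle caveolin that binds dysferlin, fell by 0.57 (edgeR adjusted p of 0.0144), from means of 59.1 CPM ± 3.88 (SD, n = 3) to 34.2 CPM ± 3.53 in males and from 37.1 CPM ± 4.76 to 29.0 CPM ± 6.42 in females. Stx4a, a syntaxin of the plasma membrane, fell by 0.34 (edgeR adjusted p of 0.00599). The ESCRT-III subunits Chmp4b, Chmp3 and Chmp1a fell by 0.33, 0.26 and 0.27 (edgeR adjusted p of 0.0113, 0.0147 and 0.0356).

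In daily against vehicle males, 0 related genes rose and 4 fell, which were Stx4a, Cav3, Chmp4b and Chmp1a, or 11.1% beside 6.46% of all genes. In females, 0 were called by edgeR and 8 had an unadjusted p under 0.05, or 22.2% beside 17.3% of all genes. Daily against weekly prednisone over both sexes gave 2 rises, Kif5b at 0.44 (edgeR adjusted p of 0.0299) and Ano5 at 0.48 (edgeR adjusted p of 0.04), and 1 fall, Chmp3 at -0.25 (edgeR adjusted p of 0.0294), or 8.33% beside 8.17% of all genes. Ano5 encodes a membrane protein of the anoctamin family whose loss causes a limb-girdle dystrophy. In weekly against vehicle, 0 of the 36 were called by edgeR over both sexes and 4 had an unadjusted p under 0.05, or 11.1% beside 11% of all genes. These shares were not tested against one another. In females against males over the 3 treatments, Cav3 was the 1 related gene called, lower by -0.42 (edgeR adjusted p of 0.0368), or 2.78% beside 7.61% of all genes. Of the annexins outside the 10, Anxa3 had a median of 33 CPM and Anxa8 of 1.85 CPM, and Anxa9, Anxa10 and Anxa13 did not pass the filter, with 92, 0 and 6 counts in all libraries together.

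**Figure D5:**
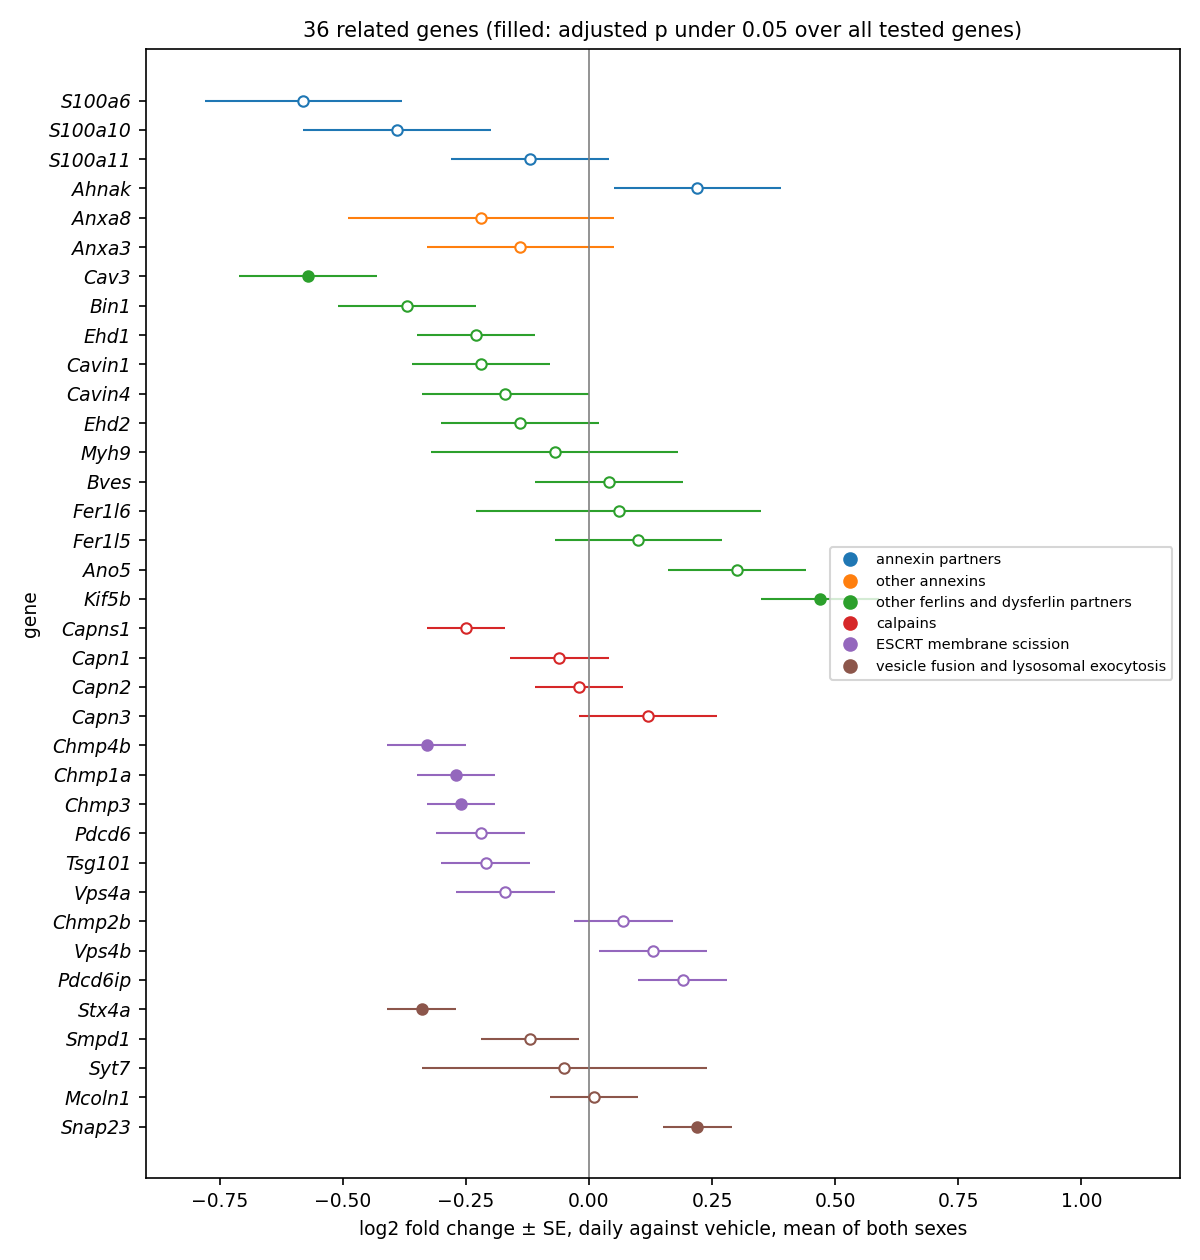
Log2 fold change ± SE of 36 related genes in daily prednisone against vehicle over both sexes, colored by list. Filled symbols have an adjusted p under 0.05 over all tested genes, which holds for the rises of Kif5b and Snap23 and the falls of Cav3, Stx4a, Chmp4b, Chmp3 and Chmp1a.

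Several members overlap genes on the other strand. Trim72 shares 617 exon bases with Gm15533, Dysf 352 with Gm15475, Anxa11 113 with Anxa11os and Anxa2 98 with Gm16144. Their counts in all libraries together were 11, 6, 9 and 43, against 28847 for Trim72, 23336 for Dysf, 10991 for Anxa11 and 19222 for Anxa2. Without a stated strand setting, reads of such pairs cannot be told apart.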

How the data were processed

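RNA from quadriceps myofibers of 18 mice was sequenced, in 6 groups of 3 by sex and treatment as the labels give them. The authors deposited 1 table of whole-number counts, with a row for each gene and a column for each library. Per the labels, the authors' processing notes name TopHat2 2.1.0, Bowtie2 2.2.6 and HTSeq, with the builds mm10 and mm9. The coordinates in the file have the same span as GENCODE mouse release 21 (GRCm38, the build of mm10) for 33497 of 43430 identifiers, which gave symbols for 42462. The strand setting is not given in the sources used here. The length column was not used because it exceeded the union of annotated exons for 8 of the 10 members, and levels were divided by the longest coding transcript.

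Counts were fitted in R 4.3.3 with edgeR 4.0.16 (filterByExpr with a minimum count of 10, TMM, robust quasi-likelihood, 6 group means). Benjamini-Hochberg adjustment ran over 13596 genes, and genes with an adjusted p under 0.05 are described as called. Log2 CPM used a prior count of 2. Alternatives were DESeq2 1.42.0, its size factors, limma-voom (limma 3.58.1), no filter, a minimum count of 50, the compared groups alone, a replicate block, removal of length and GC trends with splines of 5 degrees of freedom, and each library left out. The main edgeR fit, and not the alternatives, was tested on simulated counts with known changes in the daily libraries. Total counts were 10506661 to 14686654 per library, and replicates of a group differed by more than sampling noise.

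The members and gene lists were chosen with earlier results of these data known. All members were named, related genes were named where called, and for likeness the closest named gene of each member was given. Replicate numbers come from the sample titles. Same-numbered libraries deviated together in every pair for female weekly and daily libraries (r of 0.501, 0.483 and 0.439) and not in the other groups. The column names carry other numbers, which are equal in none of these 3 pairs, and the labels do not say what a number marks.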

Additional observations from a re-analysis of the deposited data

How the results depend on the processing

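Outside the leave-outs, of 103 recomputed counts of called members, 94 stayed within 1.5 times the reported count. Most of those that stayed were 0 in both. DESeq2 called 1 member in daily against weekly females and 2 over both sexes. With no filter, and with a minimum count of 50, 1 was called in daily against weekly females, and the minimum count of 50 also called 1 in daily against vehicle males, as did the fit of the compared groups alone. Each of these was Anxa11, joined by Anxa2 where there were 2. Removing the length and GC trend left 0 in daily against vehicle over both sexes, and the cause was not tested. The replicate block over all libraries of a sex changed no count of called members, and Anxa11 stayed at 0.37 (edgeR adjusted p of 0.0201) against vehicle and 0.50 (edgeR adjusted p of 0.0177) against weekly prednisone. The replicate block in the 6 female weekly and daily libraries called 2 members in daily against weekly females and 2 over both sexes, Anxa5 and Anxa11. The block lies within sex, so comparisons of the sexes have no blocked value. A fold limit of 1 in the filter left 0 members in daily females. Leaving out each library gave between 0 and 1 called members in daily against weekly females. It gave between 0 and 1 members past the filter in daily males, 1 and 3 in daily females, 0 and 1 in weekly males, and 0 and 1 in weekly females. Of 2230 recomputed log2 fold changes of single members, 0 reversed a call. A reversal was counted only where the value was called in the main or the other fit, so most of these values could not reverse. The median SE of a member's log2 fold change, 0.19 within a sex and 0.13 over both sexes, limits what could be called.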
